A study of Mus musculus and Homo sapiens
Mus musculus with 12 samples.

Results

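Of the 34496 genes with at least 1 count in the mouse brain libraries, 9 were examined because they code for transporters, uptake receptors or secreted proteins that define segments of the kidney tubule. They are Slc34a1, Slc5a2, Slc5a12, Lrp2 and Cubn of the proximal tubule, Slc12a1 and Umod of the thick ascending limb, Slc12a3 of the distal convoluted tubule and Aqp2 of the collecting duct. They were chosen by symbol, with earlier results of these data known. All 9 were listed in both Index_frozen libraries and 7 to 9 were listed in each of the other brain libraries.

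The series holds 12 snHH-seq libraries, a droplet method for total RNA of single nuclei in which random reverse transcription primers can carry a well-specific preindex. The 7 brain libraries came from wild-type male C57BL/6J mice aged 6 to 8 weeks. Brain tissue was frozen or fresh and the primers carried a preindex or did not, which gave 2 Index_frozen libraries (frozen, with preindex), 2 No_index_frozen libraries (frozen, without), 1 Index_fresh library (fresh, with) and 2 No_index_fresh libraries (fresh, without). The other 5 libraries are mixes of 2 lines, human 293T cells of embryonic kidney origin and NIH/3T3 mouse fibroblasts. They are a preindexed mix and mixes by loading, at 300, 600, 1200 and 2000 nuclei per microlitre, with 1 library each. All nuclei were fixed with paraformaldehyde. No genetic change of the mice and no drug treatment of any group is named in the sources used here. No source used here says whether libraries of a group came from separate animals, so p-values over libraries measure a spread that may be technical. The titles gave the groups, but for 4 of the 7 libraries (both Index_frozen and both No_index_fresh) another label field names the opposite primer. The cell barcodes were 40 bases long in the libraries titled Index, made up of a 30-base droplet barcode and a 10-base preindex, and 30 bases long in those titled No_index.

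The genes lie on several chromosomes of the mouse (build GRCm38.p6, from RefSeq). The proximal genes are Slc34a1 at chr13:55399622-55414695, Slc5a2 at chr7:128265683-128272430, Slc5a12 at chr2:110597299-110649345, Lrp2 at chr2:69424335-69586029 and Cubn at chr2:13276338-13491876. The genes of the later segments are Slc12a1 at chr2:125152510-125230002, Umod at chr7:119462708-119479262, Slc12a3 at chr8:94329109-94366222 and Aqp2 at chr15:99579056-99584545. The authors counted reads over the whole gene, introns included, so a long gene offers more sequence to count. The spans ran from 5.49 kb (Aqp2) to 216 kb (Cubn).

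The kidney tubule takes back most of what the glomerulus filters, and each of its segments does so with its own transporters. The proximal tubule recovers glucose, phosphate, lactate and filtered protein, the thick ascending limb and the distal convoluted tubule take up sodium chloride, and the collecting duct adjusts water. Slc34a1 is a sodium-phosphate cotransporter, Slc5a2 the sodium-glucose cotransporter SGLT2 and Slc5a12 a sodium-coupled lactate transporter. Lrp2 (megalin) and Cubn (cubilin) form a receptor for endocytosis of filtered protein. Slc12a1 is the sodium-potassium-chloride cotransporter NKCC2, the target of loop diuretics, Umod codes for uromodulin, an abundant urinary protein, Slc12a3 is the thiazide-sensitive sodium-chloride cotransporter, and Aqp2 is the water channel regulated by vasopressin. In brain, Lrp2 is known from the choroid plexus and ependyma, whereas the other genes are not used as markers of a brain cell type.

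Because the genes below were high in the same 2 libraries, the RefSeq promoters (250 bases before to 50 after the start of the gene, GRCm38.p6) were read, which exist here for 7 of the 9 genes and not for Slc5a2 and Slc5a12. Those of Slc34a1 (chr13:55399398-55399697, plus strand), Umod (chr7:119479213-119479512, minus strand) and Cubn (chr2:13491827-13492126, minus strand) are shown as a gene of the proximal tubule with the motif, a gene of the thick ascending limb with it, and a proximal gene without it. Capitals mark GTTAAT or its reverse complement ATTAAC, the core letters bound by the HNF1 family, which is known from kidney and liver epithelium.
Slc34a1: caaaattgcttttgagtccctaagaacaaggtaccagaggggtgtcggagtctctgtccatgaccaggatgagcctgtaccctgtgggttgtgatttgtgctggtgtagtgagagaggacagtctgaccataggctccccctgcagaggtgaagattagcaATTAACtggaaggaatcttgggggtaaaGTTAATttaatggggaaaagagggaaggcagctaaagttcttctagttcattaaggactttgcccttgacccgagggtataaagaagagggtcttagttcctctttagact
Umod: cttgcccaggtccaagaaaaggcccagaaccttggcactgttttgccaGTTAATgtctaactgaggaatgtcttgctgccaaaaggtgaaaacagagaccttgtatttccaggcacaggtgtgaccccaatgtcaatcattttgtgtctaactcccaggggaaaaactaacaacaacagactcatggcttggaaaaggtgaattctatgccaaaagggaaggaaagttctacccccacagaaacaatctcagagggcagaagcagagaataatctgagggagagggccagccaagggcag
Cubn: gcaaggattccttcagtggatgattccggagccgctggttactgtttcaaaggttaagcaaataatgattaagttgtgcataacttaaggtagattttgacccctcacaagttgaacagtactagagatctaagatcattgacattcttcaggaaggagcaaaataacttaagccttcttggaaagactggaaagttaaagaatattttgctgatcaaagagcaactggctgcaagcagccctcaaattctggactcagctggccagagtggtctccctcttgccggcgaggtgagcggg
The letters occurred in 2 places of the Slc34a1 promoter and in 1 of the Umod promoter, so 2 of 7 promoters held them, against 7.10% of 32851 promoters of the same length. TATAAA on either strand stood in 2 of the 7 (Slc34a1 and Slc12a3), against 13.6% of all, and CAAAGTCCA, an HNF4 sequence, in 0 of the 7, against 0.475%. These are matches of letters in a short window and show no binding.

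The brain libraries held 8605214 to 42439731 unique fragment identifiers (UFIs, cDNA fragments counted once) in 700 to 3100 nuclei, with median counts of 9011.5 to 27543 UFIs per nucleus. Levels are given in CPM, counts of the gene scaled to a common library size. Most nuclei held neuron transcripts. In the Index_frozen libraries, 1951 of 2300 and 1729 of 1998 nuclei had at least 10 UFIs of a list of 12 neuron genes. Such nuclei are called neuron-rich below. This is not a share of neurons, since 1298 of 1300 nuclei of No_index_fresh replicate 2 also reached the threshold. Any pair of brain libraries shared at most 10 cell barcodes, and the Index_frozen libraries shared 2 with each other. Summed over the 9 genes, the level was 836 and 752 CPM in Index_frozen replicates 1 and 2 and 7.35 to 14.3 CPM in the other 5 libraries. In summed counts, more nuclei of a type and more RNA per nucleus cannot be told apart, and the single nuclei are therefore described further on.

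Slc34a1 had 216 and 178 CPM in Index_frozen replicates 1 and 2, which is 5678 and 5663 UFIs. It had 0.697 and 0.611 CPM in No_index_frozen, 1.86 and 1.70 CPM in No_index_fresh and 0.125 CPM in Index_fresh. The lower Index_frozen library stood 95.8 times above the highest of the other 5, and fresh tissue without preindex was the highest of the rest. Slc5a12, the lactate transporter, had 143 and 95.1 CPM in Index_frozen. Its level was 1.63 and 0.883 CPM in No_index_frozen, 0.929 and 0.825 CPM in No_index_fresh and 0.218 CPM in Index_fresh. The Index_frozen libraries differed more from each other in this gene than in the other 8, and still the lower one was 58.5 times above the highest of the rest. Slc5a2 was counted at 172 and 169 UFIs in Index_frozen (6.54 and 5.32 CPM), at 0 UFIs in both No_index_frozen libraries, at 4 and 2 UFIs in No_index_fresh (0.162 and 0.0471 CPM) and at 1 UFI in Index_fresh (0.0311 CPM). The glucose transporter thus had at most 4 UFIs in any library but those of Index_frozen. Against No_index_frozen, with a floor of 3 UFIs over the group, Slc5a2 was at least 46.1-fold higher in Index_frozen, and against the single UFI of Index_fresh the ratio was 190 (95% counting interval 34.2 to 7522).

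The 2 endocytic receptors were counted in every brain library. Lrp2 had 174 and 155 CPM in Index_frozen, 1.74 and 2.31 CPM in No_index_frozen, 2.51 and 3.49 CPM in No_index_fresh and 1.65 CPM in Index_fresh. Cubn had 65.9 and 60.2 CPM in Index_frozen, 2.44 and 2.72 CPM in No_index_frozen, 1.49 and 1.84 CPM in No_index_fresh and 1.77 CPM in Index_fresh. The groups did not overlap for either receptor, with the lower Index_frozen library 44.3 times (Lrp2) and 22.2 times (Cubn) above the highest of the rest.

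In the thick ascending limb pair, Slc12a1 had 98.6 and 123 CPM in Index_frozen, 1.98 and 2.99 CPM in No_index_frozen, 3.31 and 2.85 CPM in No_index_fresh and 1.74 CPM in Index_fresh. Umod had 19.5 CPM in both Index_frozen libraries, 0.116 and 0.339 CPM in No_index_frozen, 0.485 and 0.259 CPM in No_index_fresh and 0.125 CPM in Index_fresh. The order of the 2 Index_frozen libraries was the reverse of that in the proximal genes for Slc12a1, and equal for Umod. Slc12a3, of the distal convoluted tubule, had 112 and 115 CPM in Index_frozen, 2.79 and 2.38 CPM in No_index_frozen, 3.56 and 2.66 CPM in No_index_fresh and 1.65 CPM in Index_fresh. Aqp2, of the collecting duct, was the rarest, with 33 and 35 UFIs in Index_frozen (1.26 and 1.10 CPM), 0 and 1 UFI in No_index_frozen, 0 and 2 UFIs in No_index_fresh and 1 UFI in Index_fresh. Its counting ratio was 27.5 (4.93 to 1086) against No_index_frozen, 39.6 (10.95 to 327) against No_index_fresh and 37.8 (6.79 to 1495) against Index_fresh. The plot of levels by library shows the same gap for all 9 genes.

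**Figure D1:**
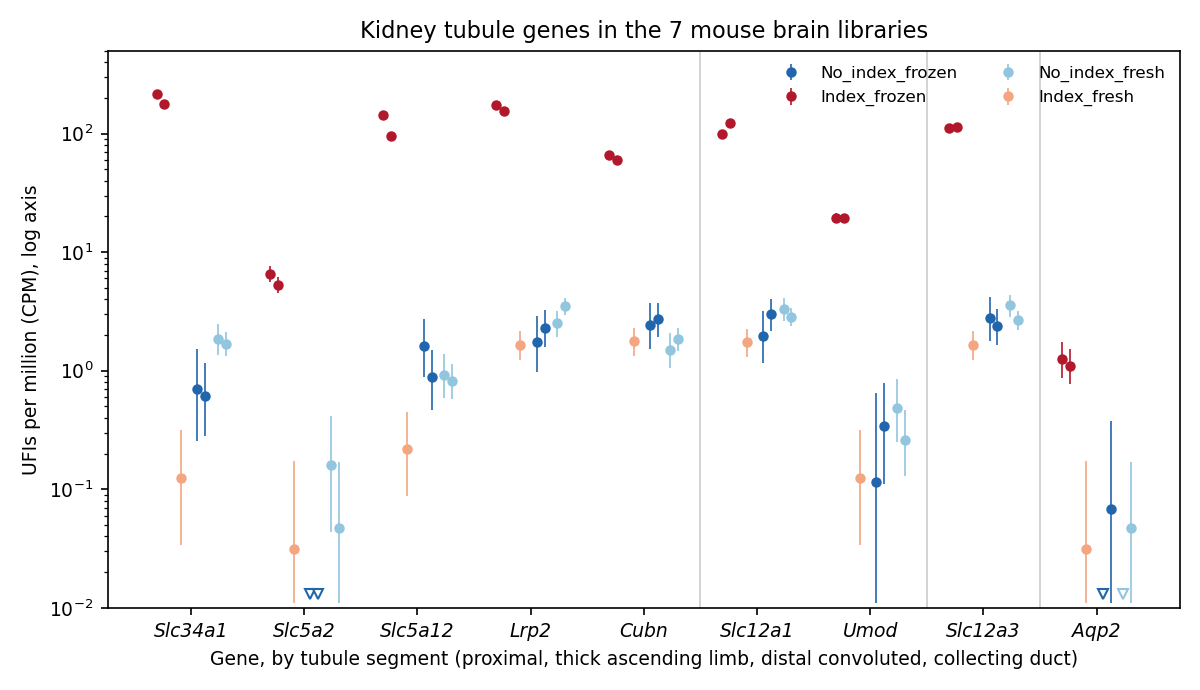
Level of each of the 9 genes (CPM, log axis) in the 7 brain libraries, with exact Poisson 95% bars that cover counting error only; open triangles mark 0 UFIs. For every gene both Index_frozen libraries lie above the other 5, from 1.10 CPM for Aqp2 to 216 CPM for Slc34a1.

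Divided by gene span, the Index_frozen level was highest for Slc34a1 at 13.1 ± 1.78 CPM per kb (SD, n = 2). Slc12a3 followed with 3.05 ± 0.0569, Slc5a12 with 2.29 ± 0.647 and Slc12a1 with 1.43 ± 0.224 CPM per kb. Umod had 1.18 ± 0.00112, Lrp2 1.01 ± 0.0831 and Slc5a2 0.879 ± 0.129 CPM per kb. Cubn, which is the longest gene, had 0.293 ± 0.0186 and Aqp2 0.215 ± 0.0199 CPM per kb. The gap between Slc34a1 and the next gene was larger than the SDs. Each of Slc12a3, Slc5a12, Slc12a1, Umod and Lrp2 differed from the next gene in this order by less than 2 times the larger SD, and the 2 libraries of Lrp2 and Slc5a2 overlapped. Without the division, Lrp2 (164 ± 13.4 CPM) and Cubn (63.1 ± 4.02 CPM) ranked far higher, the former next to Slc34a1 (197 ± 26.8 CPM).

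Index_frozen was higher than the other 3 groups for all 7 genes that pass the filter on low counts without these libraries, in edgeR's quasi-likelihood test with Benjamini-Hochberg adjustment over 19299 genes, a comparison in which 18.0% of all tested genes were called higher and 31.8% in either direction. The log2 fold change was 8.57 ± 0.11 (SE) for Slc34a1, with an adjusted p of 4.85e-16, and 7.64 ± 0.19 for Slc5a12, with an adjusted p of 2.91e-13. SE here and below is the size of the log2 change divided by the square root of the test's F statistic. It was not estimated on its own and need not cover counting error, as with the 4 UFIs of Slc34a1 in Index_fresh. Lrp2 rose by 6.24 ± 0.08 and Cubn by 5.01 ± 0.07 on the log2 scale, with adjusted p of 4.85e-16 and 9.86e-16. Slc12a1 (5.56 ± 0.10), Umod (6.45 ± 0.17) and Slc12a3 (5.63 ± 0.08) had adjusted p of 1.02e-14, 5.42e-13 and 4.85e-16. Slc5a2 (7.89 ± 0.37, adjusted p 1.18e-09) and Aqp2 (4.95 ± 0.51, adjusted p 2.71e-06) passed the filter only through the Index_frozen libraries, so they had to differ and stand outside this and later counts unless named. The median log2 fold change was 6.24 over the 7 genes and -0.01 over all genes tested. The genes and this comparison were chosen with earlier results of these data known, so these p-values do not serve as independent support.

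The study's 2 factors were tested together with the same tool. The difference between libraries with and without a preindex was larger in frozen than in fresh brain for all 7 of these genes. This was the interaction term, where 9.93% of all genes were called in this direction and 6.49% in the other. The difference is signed, and in fresh brain all of these genes but Cubn were lower with the preindex than without. The term cannot tell the primer from the wells it was used in, and the levels by well are given further on. The interaction was 11.93 ± 0.50 (log2, SE) for Slc34a1, with an adjusted p of 1.33e-09, and 4.44 ± 0.25 for Cubn, the lowest of the 7, with an adjusted p of 2.92e-08. Of the genes outside the count, Slc5a2 had 11.55 ± 1.94 and an adjusted p of 0.00106, and Aqp2, with its few UFIs, 4.49 ± 2.11 and an adjusted p of 0.178. With primer and storage as 2 separate terms, 2 of the 7 were called higher with the preindex primer, against a background of 7.88%. These were Slc5a12 (4.49, adjusted p 0.0461) and Cubn (3.08, adjusted p 0.0371), and the other 5 had adjusted p of 0.0526 to 0.0971. Slc5a2 (4.37, adjusted p 0.0349) and Aqp2 (3.26, adjusted p 0.0311), which the filter admitted through Index_frozen, were called too. DESeq2 called all 7 higher, where 1913 of 19299 genes were. Without a filter on low counts all 7 were called too, where 3043 of 34496 genes were called higher. The SE of Slc34a1 was 0.12 in that fit, against 1.62 with the filter. Counted over all 9, 2 of the 4 edgeR calls were Slc5a2 and Aqp2, which the filter admitted through Index_frozen. The count was 0 without either Index_frozen or either No_index_frozen library, 2 without No_index_fresh replicate 1 and 9 without the Index_fresh library. For storage, edgeR called 0 of the 9 (adjusted p 0.141 to 0.445, against 0.207% of all genes called in either direction, 0.114% higher and 0.0933% lower). Over the 7 genes the unadjusted p of edgeR ran from 0.0146 (Cubn) to 0.114 (Lrp2). DESeq2 also called 0 of the 9, where 153 of 19299 genes were higher and 165 lower. Without a filter on low counts all 7 were called higher, where 1203 of 34496 genes were. In that fit the SE of Slc34a1 was 0.15, against 2.05 with the filter. The direction for storage was not stable. Over the alternative fits that kept all nuclei, the lowest log2 change was -1.40 for Slc34a1, -0.52 for Lrp2 and -0.37 for Umod. It was -0.20 for Slc12a3 and -0.17 for Slc12a1, and stayed above 0 for Slc5a12 (0.47) and Cubn (0.66).

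The 10-base preindex names the well of the reverse transcription plate in which a nucleus was first barcoded, so nuclei can be set apart by well. A nucleus with at least 10 UFIs of the 9 genes is called a tubule-gene nucleus here, and there were 257 and 209 of them in Index_frozen replicates 1 and 2 and 0 in the other 5 libraries. In replicate 1 they sat on 28 of 44 preindexes, and in replicate 2 on 26 of 42. On these preindexes, 257 of 271 nuclei (94.8%) and 209 of 213 nuclei (98.1%) were tubule-gene nuclei, and 14 and 4 nuclei lay below the threshold. The other 16 preindexes of each library, defined by holding no such nucleus, had 2029 and 1785 nuclei. The 4 preindexes of each kind with the most nuclei, and the smallest of the second kind, are shown because they carry this split, each with its tubule-gene nuclei of all its nuclei in replicates 1 and 2.
Tubule-gene preindex, 29 of 30 and 19 of 19: agatggctgg
Tubule-gene preindex, 25 of 25 and 15 of 15: ggttaggttg
Tubule-gene preindex, 20 of 20 and 12 of 13: tactggctgc
Tubule-gene preindex, 15 of 17 and 20 of 20: gttgagtgtg
Other preindex, 0 of 248 and 0 of 190: cagtattgtt
Other preindex, 0 of 213 and 0 of 202: cttctggtgg
Other preindex, 0 of 188 and 0 of 157: atgttgtggc
Other preindex, 0 of 175 and 0 of 159: ggttggtggt
Other preindex, 0 of 10 and 0 of 15: tatttgtcgc
All nuclei of the last preindex were neuron-rich, although it held no more nuclei than a tubule-gene preindex.

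The split was the same in both libraries. They shared 40 preindexes, of which 24 held tubule-gene nuclei in both and 16 in neither, and 0 changed sides. With the preindexes taken from replicate 2, 250 of 264 nuclei of replicate 1 on its tubule-gene preindexes had at least 10 UFIs of the 9 genes, and 0 of 2029 on its other preindexes did, which allows a share of up to 0.148%. With those taken from replicate 1, the counts in replicate 2 were 206 of 210 and 0 of 1785, which allows up to 0.168%. The tubule-gene preindexes held 1 to 30 nuclei each and the others 10 to 248. Their nuclei were poor in neuron transcripts, with 0.364 and 0.552 UFIs of the neuron list per 10000 against 109 on the other preindexes of both libraries and 111 in Index_fresh. Only 1 and 0 of them were neuron-rich, by a threshold of 10 UFIs of that list. Their median depth was 7071 and 10306 UFIs against 10480 and 14569 on the other preindexes. None of the tubule-gene preindexes occurred in Index_fresh, which held 81 preindexes and 3100 nuclei. Of the 16 other Index_frozen preindexes only 1 occurred there, so this absence is not particular to the tubule-gene preindexes. All 81 preindexes of Index_fresh are in the study's list of primer sequences, but of the Index_frozen preindexes only 1 of 44 and 1 of 42 is. Which tissue or plate the wells were loaded with is not given in the sources used here, so a well's tissue, its plate and its preindex cannot be told apart.

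**Figure D2:**
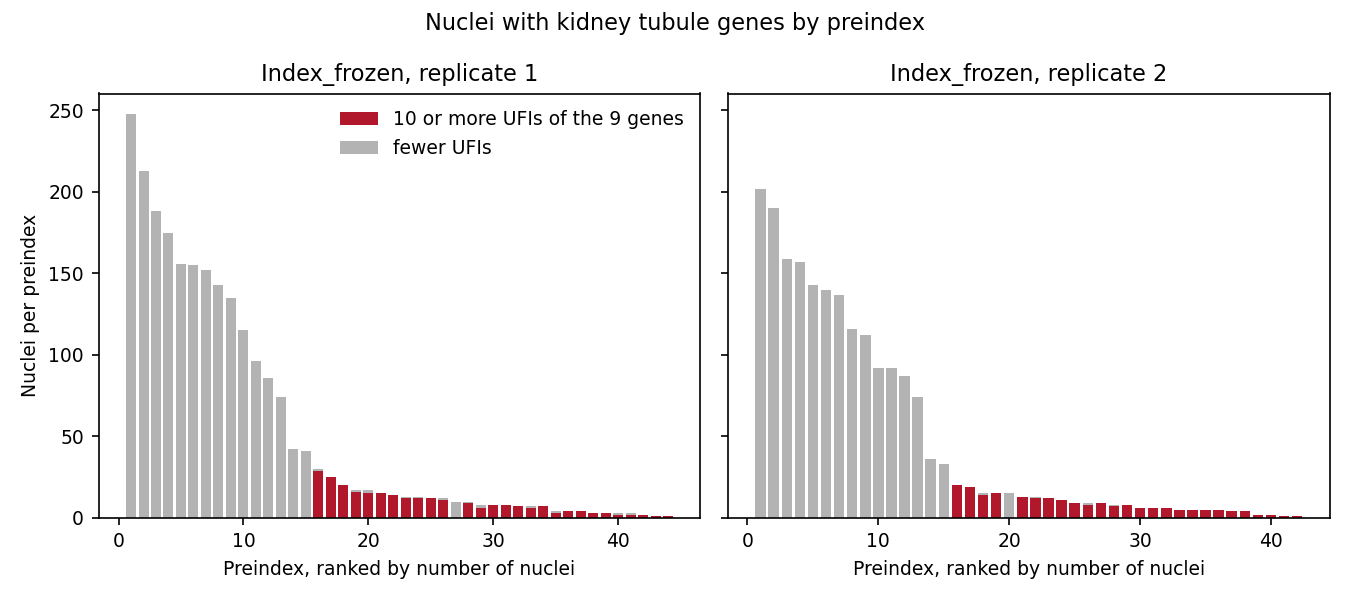
Number of nuclei on each preindex in the 2 Index_frozen libraries, stacked by whether a nucleus had at least 10 UFIs of the 9 genes. The 28 and 26 preindexes with such nuclei hold 14 and 4 other nuclei, and the 16 others are the same in both libraries.

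On the tubule-gene preindexes the levels were high for all segments. Slc34a1 had 2661 and 2388 CPM of the UFIs there, Lrp2 2133 and 2057 CPM, Slc5a12 1764 and 1275 CPM, Cubn 801 and 774 CPM and Slc5a2 81.3 and 71.8 CPM. Slc12a3 had 1365 and 1529 CPM, Slc12a1 1202 and 1637 CPM, Umod 239 and 262 CPM and Aqp2 15.1 and 14.9 CPM. On the other preindexes of the same 2 libraries the levels were near those of the other brain libraries.

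There, Slc34a1 had 1.86 and 1.49 CPM, Slc5a12 0.827 and 0.815 CPM and Slc5a2 0 in both. Lrp2 had 2.11 and 2.51 CPM and Cubn 1.53 and 3.19 CPM. Slc12a1 had 2.03 and 2.11 CPM, Umod 0.290 and 0.136 CPM, Slc12a3 1.86 and 1.53 CPM and Aqp2 0.0414 and 0 CPM. Of these values, that of Cubn in replicate 2 lay above the range of the other 5 libraries, that of Slc12a3 in replicate 2 lay below it, that of Slc34a1 in replicate 1 equalled its upper end at this rounding, and the others lay within it.

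With the tubule-gene preindexes left out, an alternative chosen after the data had been seen, 7 of the 9 genes passed the filter and edgeR called 1 of them higher in Index_frozen, where 10.6% of all genes were called higher. This was Slc34a1 (log2 1.77, adjusted p 0.000481), although its 2 values overlapped those of No_index_fresh and Index_fresh held only 4 UFIs of it. Slc5a12 (0.54), Lrp2 (0.19) and Cubn (0.39) did not pass, nor did Slc12a1 (-0.10), Umod (-0.01) and Slc12a3 (-0.36). The storage and primer fits without these wells gave an interaction of 5.12 for Slc34a1, which passed, and of -0.21 for Cubn, which did not.

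**Figure D3:**
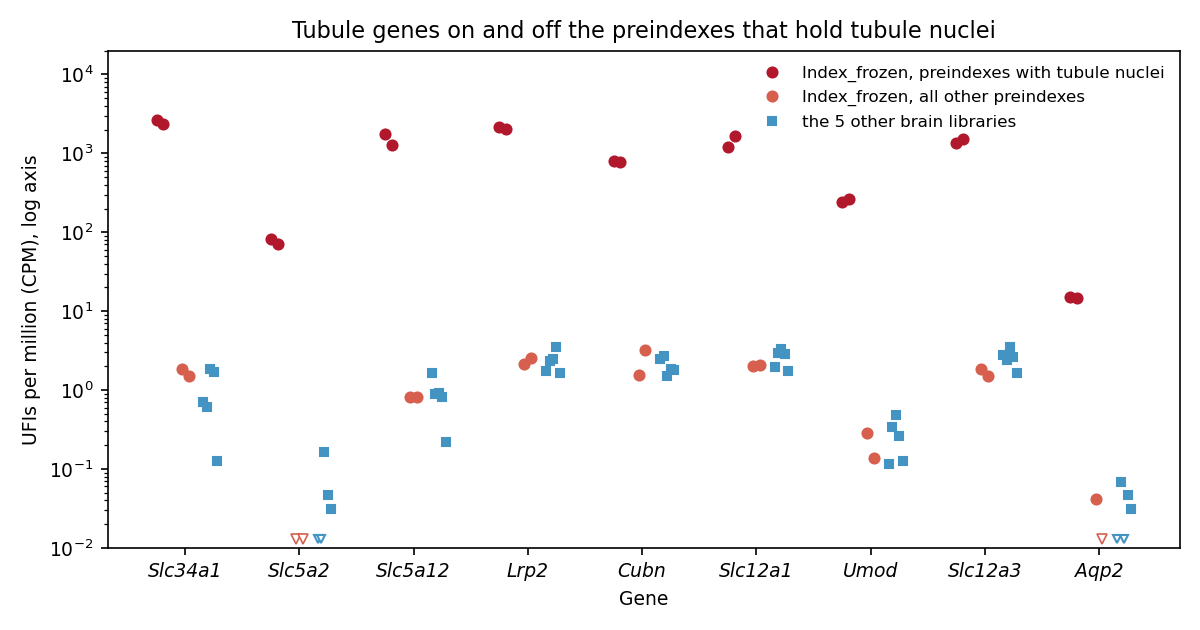
Level of the 9 genes (CPM, log axis) in the nuclei on tubule-gene preindexes and on the other preindexes of the 2 Index_frozen libraries, beside the 5 other brain libraries; open triangles mark 0 UFIs. Slc34a1 drops from 2661 and 2388 CPM to 1.86 and 1.49 CPM between the 2 sets of preindexes of the same libraries.

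In single nuclei, Lrp2, Cubn, Slc34a1 and Slc5a12 were the most widely detected. Lrp2 had a UFI in 95.6% and 96.2% of the nuclei on tubule-gene preindexes, Cubn in 92.6% and 94.8%, Slc34a1 in 89.3% and 90.6% and Slc5a12 in 72.0% and 72.3%. Slc5a2, the shortest proximal gene, was seen in 35.1% and 38.0%. Slc12a1 was seen in 43.5% and 50.2%, Umod in 37.6% and 41.8%, Slc12a3 in 30.3% and 37.6% and Aqp2 in 5.17% and 7.98%.

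Over all nuclei of these libraries, Slc34a1 had a UFI in 12.4% and 11.8% and in 2.15% and 2.43% of the neuron-rich nuclei, nearly all of which lay on the other, deeper preindexes. Lrp2 was seen in 13.3% and 13.5% of all and 2.46% and 3.76% of neuron-rich nuclei, and Slc12a1 in 6.96% and 7.71% against 2.15% and 2.72%. Slc5a2 was seen in 0 of the neuron-rich nuclei of either library. In the 5 other libraries 0 to 9% of nuclei had a UFI of any given gene of the 9, with the most in the deepest library (Lrp2, 117 of 1300 nuclei of No_index_fresh replicate 2), and no nucleus there held more than 8 UFIs of 1 gene.

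To ask whether a nucleus held genes of 1 segment or of several, a nucleus was assigned a segment at 2 or more UFIs of its genes. In this way 291 of 2300 nuclei (12.7%) and 260 of 1998 (13.0%) had a segment, and 123 of the 291 (42.3%, exact binomial 95% interval 36.5 to 48.2) and 109 of the 260 (41.9%, 35.9 to 48.2) had more than 1. On the tubule-gene preindexes of replicate 1, 140 nuclei had the proximal genes alone, 75 the proximal and thick ascending limb genes, 25 the proximal and distal genes and 15 all 3 of these segments. In replicate 2 the corresponding numbers were 98, 61, 25 and 14. Thick ascending limb or distal genes without proximal genes were found in 2 and 4 nuclei of these preindexes. The 291 and 260 also hold nuclei off these preindexes, nearly all neuron-rich and with 1 segment. Those nuclei lower the share with more than 1.

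Most nuclei of a later segment therefore also counted proximal genes, as did most nuclei of the tubule-gene preindexes of any class. Lrp2 alone had a UFI in 95.6% and 96.2% of all nuclei there, so high shares are not particular to the later segments. Of the nuclei with thick ascending limb genes, 96 of 102 (94.1%) and 81 of 96 (84.4%) had proximal genes, and of those with Slc12a3, 40 of 47 and 41 of 48 did. The reverse was rarer, with thick ascending limb genes in 96 of 278 (34.5%) and 81 of 238 (34.0%) of the nuclei with proximal genes and Slc12a3 in 40 of 278 and 41 of 238. Aqp2 reached 2 UFIs in 8 nuclei of each library, of which 7 and 8 had proximal genes. Off the tubule-gene preindexes the classes were small. Proximal genes alone were found in 16 and 31 nuclei, of which 15 in replicate 1 and all in replicate 2 were neuron-rich. Thick ascending limb genes alone were found there in 5 and 12 nuclei and Slc12a3 alone in 5 and 6, all of them neuron-rich. The shares above include these nuclei, which make up most of those with a later segment and no proximal genes.

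The counts of the later segments were either few or many. Among the 250 and 202 nuclei with at least 10 proximal UFIs, the thick ascending limb genes had 0 UFIs in 118 and 85, 1 UFI in 41 and 39, 2 to 4 UFIs in 16 and 16, 5 to 9 UFIs in 10 and 2, 10 to 19 UFIs in 9 and 2, and at least 20 UFIs in 56 and 58. Slc12a3 had 0 UFIs in 174 and 126 of these nuclei, 1 UFI in 39 and 37, 2 to 4 UFIs in 8 and 8, and at least 20 UFIs in 29 and 30, with 0 and 1 nuclei between 5 and 9 and 0 between 10 and 19. The highest count in 1 nucleus was 234 and 425 UFIs for Slc12a3. Few nuclei lay between the low and the high counts, for Slc12a3 almost none.

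**Figure D4:**
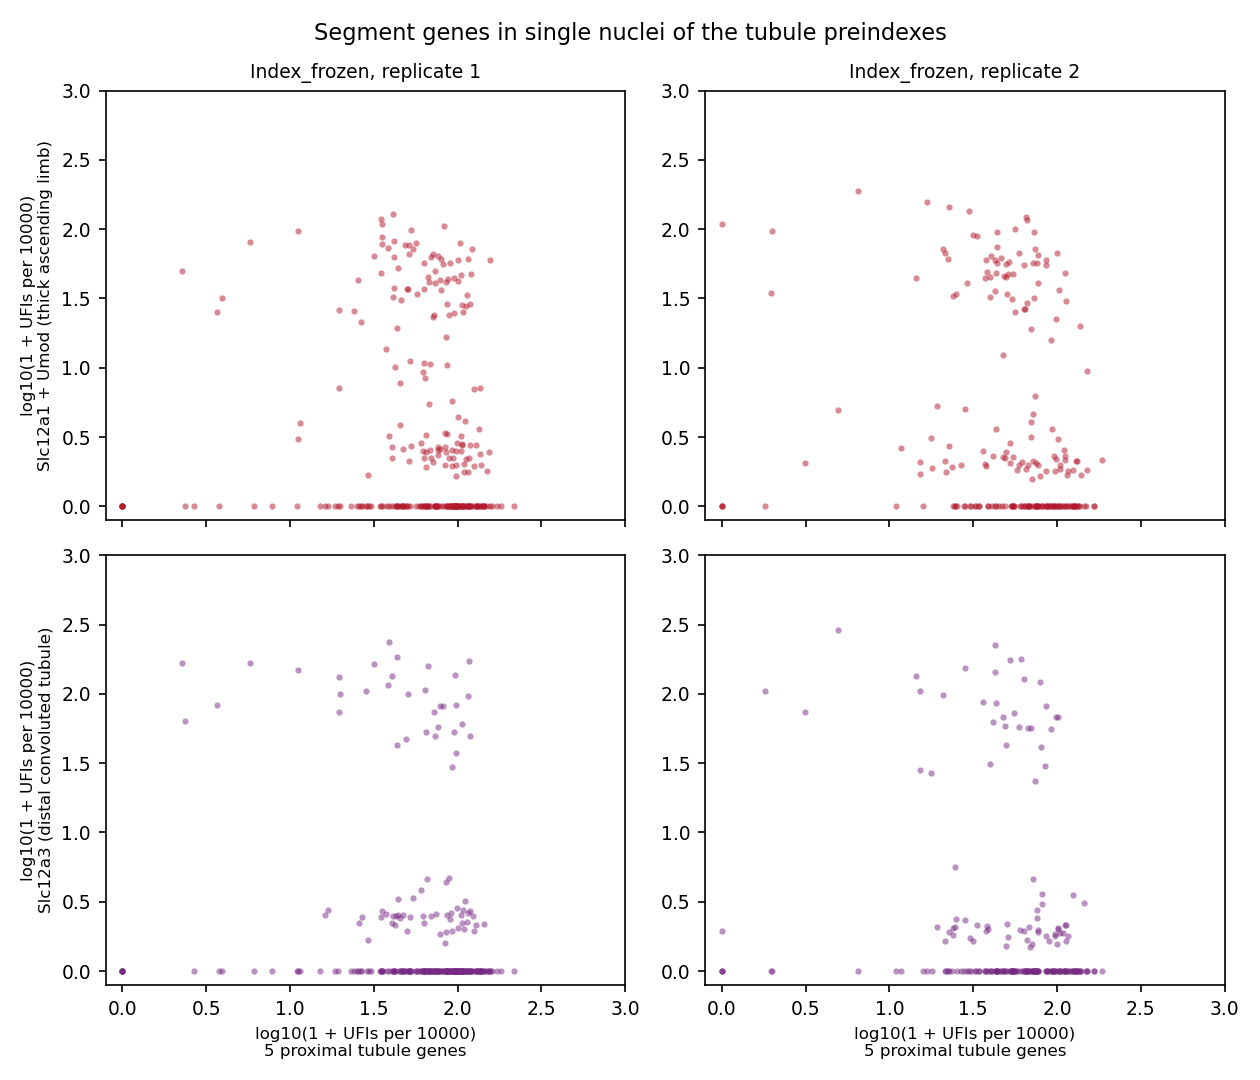
Proximal UFIs against thick ascending limb UFIs and against distal (Slc12a3) UFIs, each as log10 of 1 plus the UFIs per 10000 UFIs of the nucleus, for the nuclei on tubule-gene preindexes of both Index_frozen libraries; each point is 1 nucleus. The nuclei high in a later segment form a separate cloud that still lies at high proximal counts.

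Proximal counts were then compared over all nuclei of the tubule-gene preindexes, with no minimum of proximal UFIs. Nuclei with at least 20 thick ascending limb UFIs (60 and 62) had a median of 62.3 and 48.6 proximal UFIs per 10000, with quartiles of 40.5 to 84.6 and 33.2 to 68.1, at a median depth of 7511 and 11136.5 UFIs. Nuclei with at most 1 such UFI (174 and 130) had 79.9 and 72.1, with quartiles of 45.4 to 105 and 41.9 to 102, at 6954.5 and 10026 UFIs. Nuclei with at least 20 Slc12a3 UFIs (34 and 33) had 56.4 and 47.7 proximal UFIs per 10000, against 75.8 and 64.3 in the 229 and 171 nuclei with at most 1. The medians were lower in nuclei of the later segments in both libraries, but the quartile ranges overlapped, and the difference was not tested. Of the tubule-gene nuclei, 21 of 257 and 16 of 209 shared a droplet barcode with another nucleus. A pair of nuclei that enter 1 well and 1 droplet carry the same barcode and cannot be told from 1 nucleus, and the part of such pairs in the mixed classes was not tested.

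The class heat map gives each gene per 10000 UFIs. Slc34a1 was at 30.9 and 30.04 in nuclei with proximal genes alone, 25.0 and 21.8 with thick ascending limb genes beside them, 26.9 and 20.5 with Slc12a3 and 12.7 and 14.3 with all 3 segments. Lrp2 varied less, from 23.0 and 24.7 to 16.2 and 14.1. The classes were assigned from these same genes, so that Slc12a1 and Slc12a3 had to be low in the proximal class. Where assigned, Slc12a1 was at 33.6 and 45.7 in the proximal and thick ascending limb class and Slc12a3 at 72.5 and 64.9 in the proximal and distal class.

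**Figure D5:**
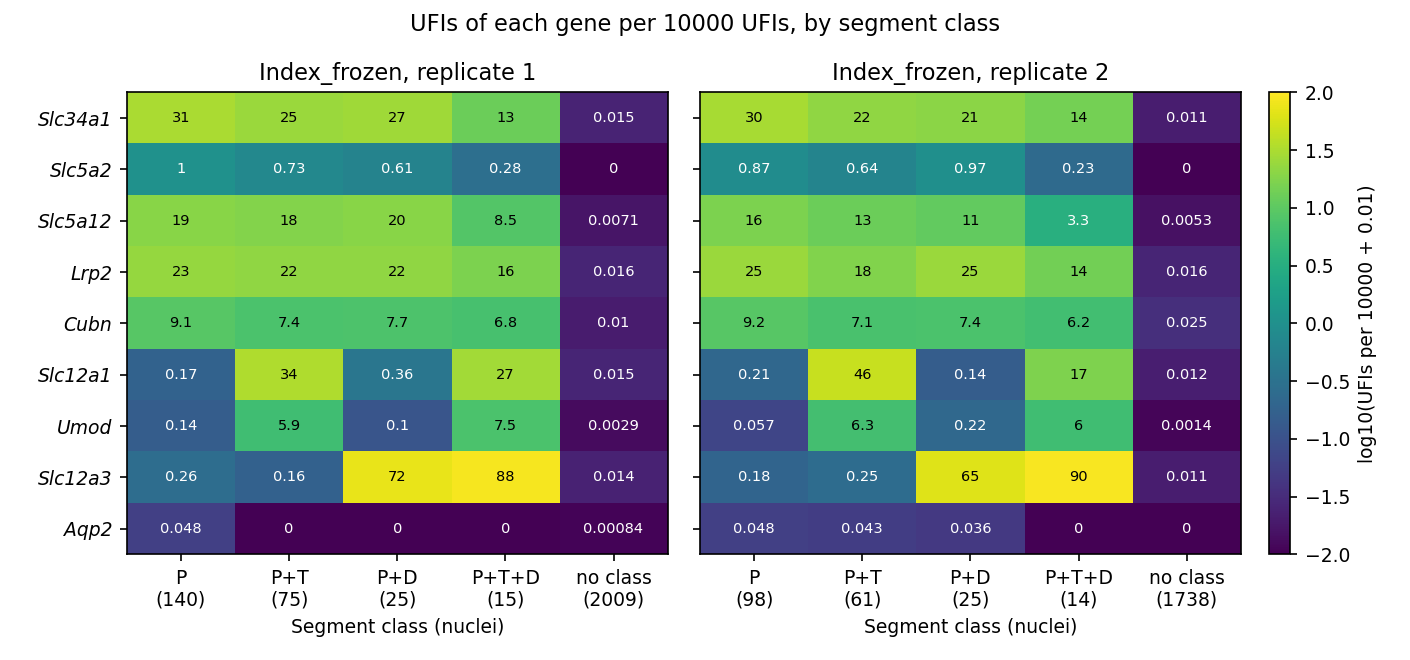
UFIs per 10000 of each of the 9 genes in nuclei grouped by the segments they were assigned (P proximal, T thick ascending limb, D distal; numbers of nuclei in brackets), in both Index_frozen libraries; the cell colour (log scale) and the printed value give the level. The classes were assigned from the same genes, which sets the low values of Slc12a1, Umod and Slc12a3 in the proximal class, and Slc34a1 is at 12.7 or more in the 4 classes shown that have a segment.

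Further segment genes that were not used to assign the classes moved with them. In nuclei with proximal genes alone, a list of other proximal genes had 168 and 169 UFIs per 10000 against 6.71 and 6.52 in the nuclei without a class. It had 137 and 123 where thick ascending limb genes were also assigned and 147 and 122 where Slc12a3 was. A list of other thick ascending limb genes had 13.7 and 15.7 in the proximal class, 43.1 and 54.1 in the proximal and thick ascending limb class and 28.7 and 25.3 in the proximal and distal class. A list of other distal genes had 15.97 and 15.6, 16.4 and 18.0, and 48.3 and 35.1 in the same 3 classes. Among these 3 classes, each list was highest in the one named for its own segment. The few nuclei with a later segment alone were low in the other proximal genes, at 24.3 UFIs per 10000 in the 3 with thick ascending limb genes (replicate 2) and at 16.4 and 11.5 in the 1 nucleus of each library with Slc12a3. The neuron list was at 0.458 and 0.478 in the proximal class against 109 and 108 without a class. In the 14 and 4 nuclei on tubule-gene preindexes under the threshold, the podocyte list held 9.39 and 31.9 UFIs per 10000 (2.20 and 2.12 in nuclei without a class). In replicate 2, 3 of the 4 nuclei held 0 UFIs of the podocyte list. The list of general tubule genes held 58.2 and 15.8. Other collecting duct genes held 10.2 and 0.278 (0.147 and 0.120 without a class), and endothelial genes 4.80 and 0.278 (0.141 and 0.254).

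Pairs of genes of 1 segment went together to different degrees. Across the nuclei of 1 library (n = 2300 and 1998), which share library and wells, Pearson's r of the log values was 0.94 in both for Lrp2 with Cubn, 0.90 and 0.91 for Slc34a1 with Lrp2, 0.87 and 0.86 for Slc34a1 with Slc5a12 and 0.84 and 0.86 for Slc12a1 with Umod. Within the tubule-gene preindexes (n = 271 and 213), where the contrast with neurons is absent, these were 0.63 and 0.70, 0.40 and 0.45, 0.62 and 0.63, and 0.79 and 0.82. The 10 proximal pairs ran there from 0.11 to 0.63 in replicate 1 and from 0.063 to 0.70 in replicate 2, with the low values for Slc5a2 or Slc5a12 beside Lrp2 or Cubn (Slc5a12 with Lrp2, 0.19 and 0.23). Slc34a1 with Slc12a1 went from 0.48 and 0.50 over all nuclei to -0.05 and -0.07 within these wells, and Slc34a1 with Slc12a3 from 0.32 and 0.36 to -0.13 and -0.11. Over all 25 pairs of different segments, r was 0.019 to 0.51 and 0.097 to 0.50 over all nuclei and -0.15 to 0.070 and -0.23 to 0.089 within these wells.

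By detection, 93 of 95 and 81 of 81 nuclei with Slc5a2 had Slc34a1, and 91 of 95 and 78 of 81 had Slc5a12. Of the nuclei with Umod, 81 of 109 and 73 of 93 had Slc12a1. The 15 and 17 nuclei with Aqp2 had Slc34a1 in 13 and 17 cases. Over all nuclei of the tubule-gene preindexes, 89.3% and 90.6% had Slc34a1, 72.0% and 72.3% Slc5a12 and 43.5% and 50.2% Slc12a1.

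For each gene, the 3 genes with the most similar values over the nuclei of both libraries were found, out of 14876 genes with a UFI in at least 20 nuclei of each library. Among those of Slc34a1 were Bnc2 (r 0.95 and 0.96) and Ndrg1 (0.94 and 0.95). Slc5a12 was followed by Nox4 (0.90 and 0.88), a NADPH oxidase abundant in kidney, Slc6a19 (0.87 and 0.89), a neutral amino acid transporter, and Slc7a7 (0.87 and 0.86), and Slc5a2 by the same 3 genes at 0.64 to 0.74. Lrp2 was followed by Col4a3, Pkhd1 and Kcnj15 (0.93 to 0.95) and Cubn by Kcnj15, Itgb6 and Col4a3 (0.90 to 0.93). These values include the contrast with neurons. Within the tubule-gene preindexes they were 0.31 to 0.58 for Lrp2 and 0.32 to 0.59 for Cubn, whereas Bnc2 with Slc34a1 had 0.85 and 0.87 there. Slc12a1 and Umod had the same 3, namely Egf (0.79 and 0.82, 0.75 and 0.85), Kng2 and Tmem72. Slc12a3 was followed by Trpm6 (0.70 and 0.79), a magnesium channel, Abca13 (0.71 and 0.68) and Sgms2 (0.57 and 0.60). Trpm6 had 0.81 and 0.85 within the tubule-gene preindexes. For Aqp2 the values were low, at 0.50 and 0.32 for Ehf, 0.48 and 0.32 for Ppl and 0.43 and 0.32 for Tmem45b, over 15 and 17 nuclei with a UFI.

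Other genes of the tubule went the same way in the sums. Of the other proximal genes listed, 29 of 30 tested were higher in Index_frozen and 0 lower, where 18.0% of all genes were called higher and 13.8% lower. Of the thick ascending limb genes 13 of 14 were higher, of the distal genes 8 of 10 with 1 lower (Pvalb, which interneurons also express), of the collecting duct genes 12 of 14, of the general tubule genes 8 of 8 and of the podocyte genes 5 of 6. Without the tubule-gene wells only 23 of the 30 proximal, 8 of the 14 thick ascending limb and 8 of the 14 collecting duct genes passed the filter. The rest passed it only through those wells and had to differ, so these counts are not independent support. Dab2, an adaptor of megalin endocytosis, had 234 and 204 CPM against 4.30 to 6.81 CPM in the other libraries. Kcnj16 had 73.8 and 60.1 CPM against 1.34 to 2.65, Egf 86.0 and 106 CPM against 6.07 to 9.23 and Scnn1b, a subunit of the epithelial sodium channel, 4.37 and 6.26 CPM against 0 to 0.444. Pkhd1, the gene of recessive polycystic kidney disease, had 243 and 222 CPM against 4.73 to 6.74. Some listed genes are also used in brain and had a high level in all libraries, such as Slc4a4, a bicarbonate cotransporter of astrocytes too, which rose to 653 and 613 CPM against 334 to 409. Esrrg had 801 and 758 CPM against 332 to 391, Ptpro 146 and 143 CPM against 103 to 126 and Klhl3 190 and 194 CPM against 147 to 203, an overlap, and Enox1 (818 and 824 CPM against 787 to 968) and Synpo (53.4 and 57.6 CPM against 49.6 to 62.3) did not pass. With the tubule-gene preindexes left out, 10.6% of all genes were called higher, and the counts were 2 of 23 tested proximal genes, 2 of 8, 0 of 9, 0 of 8, 2 of 7 and 1 of 5 in the same order.

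Lists for other cell types were read in the same comparison because Lrp2 and other tubule genes are also made elsewhere in the brain. Against the same 18.0% higher and 13.8% lower over all genes, 3 of 6 choroid plexus genes were higher and 1 lower, with a summed level of 101 to 104 CPM in Index_frozen and 30.2 to 58.0 CPM in the others, and of the ependymal genes 0 were higher and 3 lower of 6. The choroid plexus list had 10.1 and 11.2 UFIs per 10000 in the nuclei of tubule-gene preindexes with proximal genes alone. In nuclei without a class it had 0.275 and 0.326. The proximal class was assigned in part by Lrp2, which is known from choroid plexus, so choroid plexus nuclei could fall in that class. Whether such nuclei raised the sum was not tested. Kl, made by choroid plexus and by distal tubule, had 22.9 and 27.6 CPM against 2.49 to 5.11 CPM. Of the liver genes 1 was higher and 3 lower of 8. The liver list summed to 45.2 CPM in the Index_fresh library, against 2.66 and 1.98 CPM in Index_frozen and 1.15 to 1.86 CPM in the No_index libraries. Of the neuron genes 0 were higher and 6 lower of 12, with a sum of 10001 to 10056 CPM against 9641 to 11062 CPM. The oligodendrocyte genes were all higher, 7 of 7, with and without the tubule-gene preindexes. Of the other lists, 1 astrocyte gene was higher and 1 lower of 6, 3 genes of oligodendrocyte precursors higher of 5, 1 microglia gene higher and 1 lower of 6 and 1 endothelial gene higher and 2 lower of 5.

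In the 5 libraries of 293T and 3T3 cells the levels were read in barcodes with over 75% of UFIs from 1 species. In the mouse 3T3 barcodes Cubn had 6.53 to 18.1 CPM, Lrp2 2.35 to 5.82 CPM, Slc12a1 0.170 to 1.21 CPM and Slc5a12 0.282 to 0.849 CPM. Slc34a1 (0 to 0.200), Slc5a2 (0 to 0.134), Umod (0.134 to 0.200), Slc12a3 (0 to 0.282) and Aqp2 (0 to 0.339 CPM) were near 0. The 293T barcodes, of human embryonic kidney origin, held LRP2 at 47.3 to 82.2 CPM and CUBN at 13.2 to 20.8 CPM. The other 7 genes were at 0 to 6.25 CPM. LRP2 (82.2) and SLC5A12 (6.25 CPM) were highest in the preindexed mix, against 47.3 to 55.1 and 0.101 to 0.587 CPM in the mixes by loading. CUBN was lowest in the preindexed mix (13.2 CPM) and mouse Cubn highest (18.1 CPM). These tables were counted by another pipeline than those of the brain, so levels across them are set side by side and not tested.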

How the data were processed

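The authors ground brain tissue in liquid nitrogen, fixed and barcoded nuclei, trimmed poly-A with Cutadapt, chose barcodes with UMI-tools by a manual cutoff, aligned with STAR (unique reads), assigned reads to genes with introns by featureCounts and deposited raw UFI counts per gene and nucleus. The versions are not given in the sources used here, and for this step the text names the human build although the processing notes also list GRCm38 and mm10. The mixes were counted by the authors with STARsolo. Here, all deposited nuclei were kept, no doublet caller was run, and UFIs were summed per library. Depths, from 8605214 to 42439731 UFIs, set the counting intervals (exact, 95%), which cover counting error only. Genes passing filterByExpr were tested with edgeR 4.0.16 (glmQLFit and glmQLFTest, TMM, R 4.3.3) with Benjamini-Hochberg adjustment at 0.05, with group means for Index_frozen against the other groups and with storage and primer terms for the rest. Tested on simulated data, in which 200 genes were given a log2 change of 1.5, the Index_frozen comparison recovered 158 of them over 18610 genes. The interaction recovered 98 of 200. The simulated spread was taken from the fit with storage and primer terms, also for the Index_frozen comparison. DESeq2 1.42.0, upper-quartile scaling, no filter, a replicate block, leaving out each library and leaving out tubule-gene nuclei were alternatives. Nuclei were compared on counts per 10000 UFIs and also thinned to 3000 UFIs. Like genes are the 3 with the highest mean Pearson's r over both Index_frozen libraries, and genes named from a list are among the 2 with the highest Index_frozen level. The genes examined, the lists and the rules were chosen with earlier results of these data known. Titles gave the groups, since primer labels conflict for 4 of 7 libraries. One gene that meets the rule for like genes is not reported here.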

Additional observations from a re-analysis of the deposited data

Results flagged for a closer look

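By the interaction term of edgeR's quasi-likelihood test, the difference between libraries with and without a preindex differed between frozen and fresh brain for 7 genes. Over all 19299 genes tested, 16.4% were called for this term and 9.93% in this direction. The difference is signed, and in fresh brain all of the 7 but Cubn were lower with the preindex. Slc34a1 had 0.125 against a mean of 1.78 CPM and Lrp2 1.65 against 3.00 CPM. Cubn was not lower (1.77 against 1.67 CPM). These 7 pass the filter on low counts without Index_frozen. The same held for Slc5a2, which passes it only through Index_frozen and adds nothing to the count. On the log2 scale this difference of differences was 11.93 for Slc34a1, 11.55 for Slc5a2, 8.54 for Slc5a12, 7.10 for Lrp2, 4.44 for Cubn, 6.11 for Slc12a1, 7.56 for Umod and 6.25 for Slc12a3, each larger in frozen brain. The adjusted p ranged from 1.06e-09 (Lrp2) to 0.00106 (Slc5a2). Fresh brain with a preindex was 1 library, which is assumed to vary like the libraries of the other groups. With the wells of tubule-gene nuclei left out, a choice made after the data had been seen, Slc34a1 alone still passed among the 7 genes tested, at 5.12.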

How the results depend on the processing

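Against the other groups, the 7 genes that pass the filter without Index_frozen were higher there in 77 of 77 values under the alternatives that kept all nuclei, and in the interaction 70 of 70 kept direction and side of the threshold. Without the nuclei of a segment class the log2 change became -0.21 for Slc12a1 and -0.23 for Slc12a3, and with the tubule-gene wells left out (chosen after the data had been seen) -0.10, -0.36 and, for Umod, -0.0050. The interaction of Cubn became -0.21 without these wells. The primer term became -0.90 and -0.88 for Slc5a12 in these 2 settings and -0.0017 for Cubn without the class nuclei; by construction both remove the nuclei that hold the genes. Of all genes, 3041 passed for primer, 4787 without a filter and 1009 to 5668 without 1 library, lowest without Index_frozen replicate 2 and highest without Index_fresh. For storage 40 passed, with 318 by DESeq2, 1937 without a filter, 76 and 70 in the settings with nuclei left out and 4 to 840 without 1 library. For Index_frozen against the rest 6131 passed, with 3700 by DESeq2, 3373 and 3519 with nuclei left out and 3988 to 7052 without 1 library. For the interaction 3168 passed, with 1885 by DESeq2 and 1451 and 1523 with nuclei left out. With upper-quartile scaling the share of higher among called genes went from 56.7% to 48.9% for Index_frozen and from 60.5% to 47.9% for the interaction, and for primer from 50.02% to 62.3% with DESeq2. Deviations from the group means hardly correlated between same-numbered libraries (r -0.0429 to 0.0421). This cannot tell whether such libraries shared an animal or a run. A replicate block gave 1731 calls for primer and 5 for storage. It called 0 of the 7 genes for primer in place of 2. Nuclei with any of the 9 genes were 20.7% and 24.0% in Index_frozen replicates 1 and 2, 12.2% and 12.3% at 2 UFIs and 14.3% and 13.8% after thinning. Nuclei in a segment were 12.7% and 13.0%, 20.7% and 24.0% at 1 UFI and, in replicate 2, 10.5% at 5 UFIs and 10.6% after thinning, and those in more than 1 segment of replicate 2 went from 41.9% to 35.6% at 1 UFI. Where no cause is given, the cause was not tested. Low counts limit Slc5a2, Aqp2 and Umod (1 to 12 UFIs per library) outside Index_frozen, and Slc34a1 (4 UFIs) and Slc5a12 (7 UFIs) in Index_fresh.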
